A study of Mus musculus with 3 samples.

Results

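The 8 genes described here encode enzymes that oxidize 5-methylcytosine (5mC) or act in base excision repair. They were chosen by name from the 22367 protein-coding genes of the GENCODE M1 annotation of mm9. Tet1, Tet2 and Tet3 encode the ten-eleven translocation dioxygenases. Tdg, Mbd4, Neil1, Neil2 and Apex1 encode base excision repair enzymes and are called the repair genes below. For each gene, reads were pooled over the promoter (500 bp on each side of every annotated transcript start), the exons, the introns and the 10 kb upstream. Bases inside a promoter window were left out of the other features. Of the 9618 CpG cytosines in these regions, counted on each strand, 9386 had reads in at least 1 library.

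The cells were E14 mouse embryonic stem cells (mESCs), an established pluripotent line, grown on gelatin with serum, LIF and the inhibitors PD0325901 and CHIR99021 (1 µM and 3 µM). The values come from 3 libraries of their genomic DNA, 1 for each of the methods TAPSβ, CAPS and PS and without replicates. TAPSβ reads 5mC, CAPS reads 5-hydroxymethylcytosine (5hmC), and PS reads 5-formylcytosine (5fC) and 5-carboxylcytosine (5caC). In each method the modified cytosine is read as T. By design of the methods, 5fC and 5caC are also read as T in TAPSβ and CAPS, and CAPS does not convert all 5hmC. Levels were not corrected for this, except for conversion rates in 1 alternative. DNA for CAPS was size-selected to shorter fragments than DNA for TAPSβ and PS. All samples were the same untreated line, so the comparisons are between genes within 1 library, and no test between conditions could be made. Median depth per cytosine with reads was 13 in TAPSβ, 9 in CAPS and 10 in PS. Genome-wide levels were 57.5%, 3.14% and 0.246%. A level is the number of modified reads over all reads, given with its exact (Clopper-Pearson) 95% binomial interval, and all intervals cover counting error only. Neighbouring CpGs can lie on the same read, so base calls are not independent. Intervals of levels and of their ratios are therefore narrower than a true error, most of all where CpGs are dense. Levels of unmodified DNA are not 0: the calling test below took 0.72% as the false-positive rate of CAPS and 0.27% as that of PS.

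TET dioxygenases oxidize 5mC stepwise to 5hmC, 5fC and 5caC. TDG excises 5fC and 5caC, and the abasic site it leaves is cut by APEX1 or, with the help of NEIL glycosylases, passed on for repair. MBD4 removes thymine or uracil opposite guanine at CpGs. In mouse embryonic stem cells Tet1 and Tet2 are known as the main expressed Tet genes, while Tet3 is known for its role in the zygote and in differentiated cells. Expression was not measured in these samples, and this background is the reason for setting Tet1 and Tet2 against Tet3.

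Sequence in front of the gene starts differed strongly in CpG content, which bears on what the promoter windows hold. The 150 bases before 5 starts are shown 5′ to 3′ on the gene's own strand, with CpGs in capitals. All were read from NCBIM37, the assembly also called mm9, and all 5 lie on the minus strand. For Tet1 there are 2 of them. One precedes the 5′ end of the GENCODE gene (chr10:62361867-62362016) and the other precedes the RefSeq start (chr10:62350073-62350222). The Tet2 stretch is at chr3:133207355-133207504, that of Tet3 at chr6:83391673-83391822 and that of Neil2 at chr14:63812379-63812528.
Tet1 GENCODE start: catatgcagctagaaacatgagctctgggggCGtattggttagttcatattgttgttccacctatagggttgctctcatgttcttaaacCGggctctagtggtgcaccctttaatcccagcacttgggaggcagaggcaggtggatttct
Tet1 RefSeq start: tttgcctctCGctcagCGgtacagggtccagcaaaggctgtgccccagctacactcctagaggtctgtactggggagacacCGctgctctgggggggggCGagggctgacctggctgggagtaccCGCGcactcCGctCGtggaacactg
Tet2 start: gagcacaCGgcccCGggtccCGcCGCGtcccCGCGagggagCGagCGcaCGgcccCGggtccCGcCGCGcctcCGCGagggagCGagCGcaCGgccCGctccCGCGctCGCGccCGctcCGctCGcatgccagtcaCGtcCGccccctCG
Tet3 start: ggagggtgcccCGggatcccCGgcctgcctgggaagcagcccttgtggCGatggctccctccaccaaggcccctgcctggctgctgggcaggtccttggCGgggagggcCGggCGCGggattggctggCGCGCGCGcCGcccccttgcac
Neil2 start: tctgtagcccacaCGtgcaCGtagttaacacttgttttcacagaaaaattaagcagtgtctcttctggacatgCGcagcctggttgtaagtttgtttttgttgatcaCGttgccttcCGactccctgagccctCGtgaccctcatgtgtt
The stretch of Tet2 held 30 CpGs, that of Tet3 12, that before the RefSeq start of Tet1 8, that of Neil2 6, and that before the GENCODE start of Tet1 2. In TAPSβ the Tet2 stretch had 0 modified of 683 base calls, which allows a level of up to 0.539% if base calls are taken as independent. The Tet3 stretch had 1 of 419 and the RefSeq stretch of Tet1 had 1 of 272. The GENCODE stretch of Tet1 had 4 of 81 modified (4.94%, 1.36 to 12.2%), and the Neil2 stretch 4 of 196 (2.04%, 0.559 to 5.14%).

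The promoter class of these genes mixed unmethylated starts with methylated internal ones. At the 5′ starts, the TAPSβ level within 500 bp was 0.199% in Tet2 (0.0648 to 0.465%), 0.306% in Apex1, 0.399% in Neil1, 0.904% in Tdg, 2.02% in Tet3, 4.12% in Neil2 and 5.92% in Tet1 (3.94 to 8.50%). All 7 were far below the genome level of TAPSβ. The intervals of Tet2, Apex1 and Neil1 include the false-positive rate that the study gives for TAPSβ, so these 5′ starts cannot be told from unmodified DNA. Annotated starts further inside the genes were mostly methylated. The start of the shorter Tet2 transcript, 55719 bp into the gene, had 67.5% (61.8 to 72.8%), and the internal Tet3 start, 61776 bp in, had 76.3% (71.1 to 80.9%). The internal starts of Tdg had 50.9%, 43.9% and 67.6%, and that of Neil1, 1088 bp in, had 45.3%. The Neil1 start also carried the highest CAPS level of any start, 10% (24 of 240, 6.51 to 14.5%), against 0.969% (0.419 to 1.90%) at its 5′ start. At the internal Tet2 start CAPS read 6.64% (3.76 to 10.7%), against 0.313% (0.0853 to 0.799%) at the 5′ start. The internal start of Tet3 was as strongly methylated as that of Tet2 but had 1 modified of 277 CAPS base calls (0.361%, 0.00914 to 1.99%), an interval wholly below that of Tet2.

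**Figure D1:**
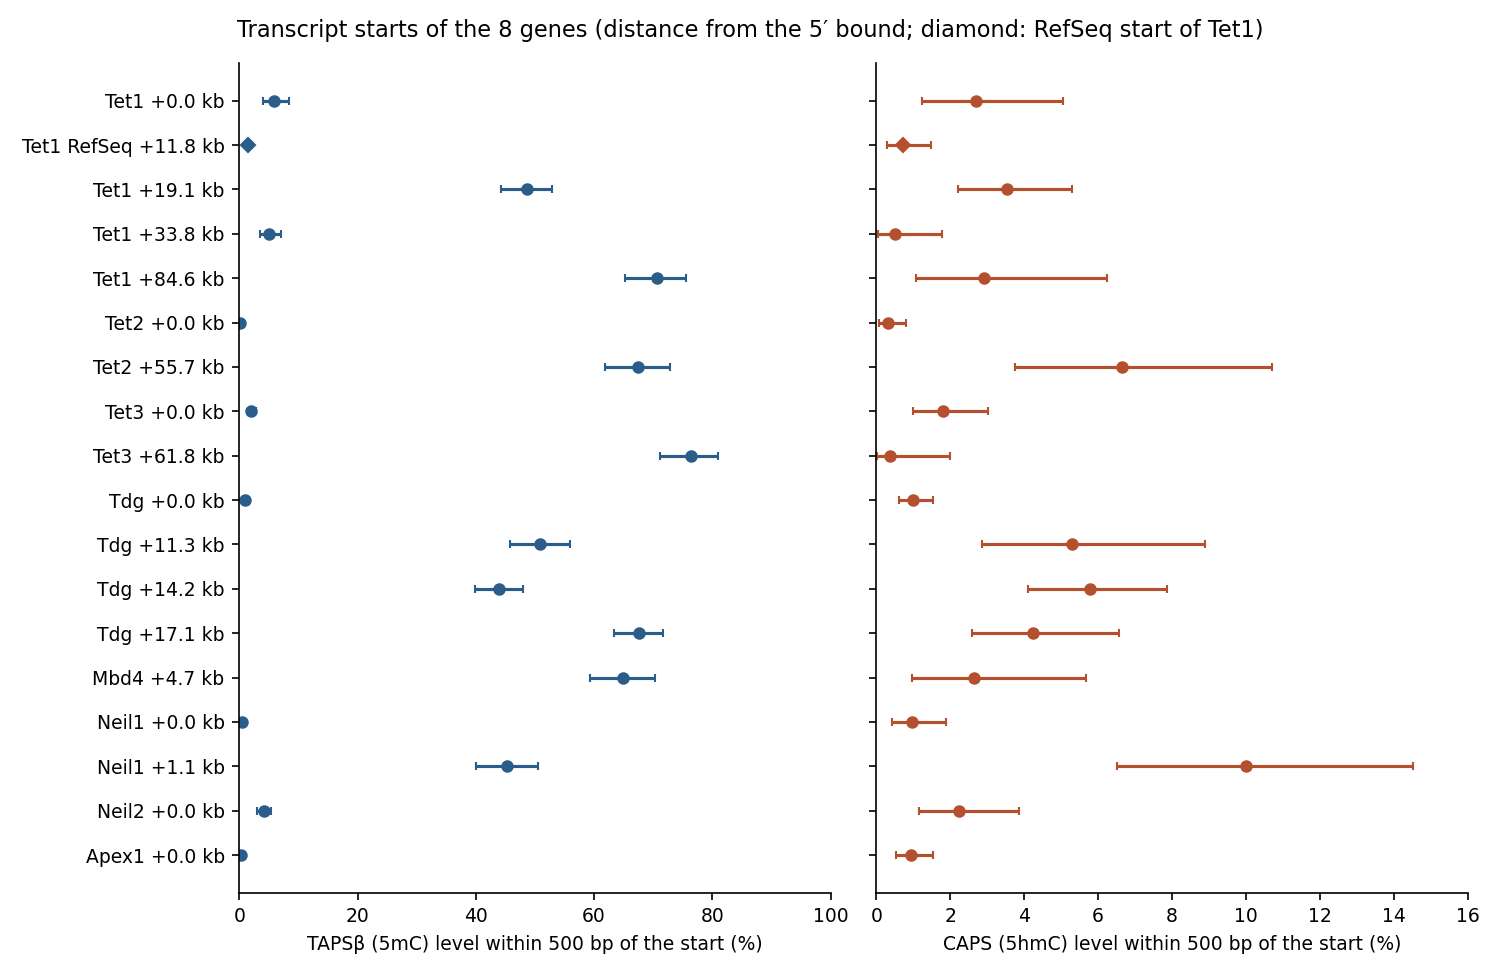
TAPSβ level (left, %) and CAPS level (right, %) within 500 bp of each annotated start, labelled by its distance from the 5′ bound of the gene in kb, with exact 95% intervals. Points are GENCODE M1 starts, joined when within 1000 bp of each other, and the diamond is the RefSeq start of Tet1. The 5′ starts sit at 5.92% TAPSβ or less, while internal starts reach 76.3%.

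Tet1 has 4 separate start clusters, and its levels ranged over most of the scale. The 5′ start had 5.92%, the start of the transcripts Tet1-201 and Tet1-202, 19104 bp in, 48.6% (44.3 to 52.9%), that of the noncoding transcript Tet1-002, 33814 bp in, 5.06% (3.53 to 6.999%), and the start cluster 84577 bp in 70.6% (65.3 to 75.5%). None of the 4 windows covered the RefSeq start. The 300-base RefSeq promoter sequence of Tet1, listed for GRCm38.p6, matched NCBIM37 at 1 place and put the start at chr10:62350072, 11794 bp inside the GENCODE gene. Within 500 bp of it TAPSβ read 1.54% (32 of 2079, 1.06 to 2.17%) and CAPS 0.726% (7 of 964, 0.292 to 1.49%), so CAPS was at the level of its false-positive rate. A 1-kb window (chr10:62348867-62349866) that overlaps the gene side of this one, with 124 CpG cytosines of which some are counted in both, had 0 modified of 2395 TAPSβ base calls, an upper limit of 0.154%. It was the lowest of the 85 Tet1 windows outside the GENCODE promoter windows. The pooled promoter value of Tet1, 27.7%, therefore describes the annotated windows and leaves out the RefSeq start, whose bases are counted in the introns.

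RefSeq promoter sequences were given for 7 of the 8 genes and each matched at 1 place. The starts of Tet2, Tet3, Tdg, Neil1 and Apex1 lay within 183 bp of the 5′ bound of the GENCODE gene. The same holds for Mbd4, but its 5′ start cluster, with 118 CpG cytosines, had no reads in any of the 3 libraries and was not analysed here. The promoter level of Mbd4, 64.9% (59.2 to 70.3%), came from the window of 1 internal noncoding start, 4666 bp into the gene.

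In introns Tet1 and Tet2 had less 5mC and more 5hmC than Tet3. In TAPSβ the introns of Tet1 read 37.8% (10040 of 26554 base calls, 37.2 to 38.4%) and those of Tet2 36.8% (5600 of 15237, 35.99 to 37.5%), while those of Tet3 read 65.7% (14061 of 21414, 65.02 to 66.3%). In CAPS the place of Tet3 was reversed, with 5.07% in Tet1 (4.75 to 5.41%), 4.55% in Tet2 (4.15 to 4.98%) and the lowest level, 2.99%, in Tet3 (2.73 to 3.27%). The intervals of Tet1 and Tet2 overlapped in both libraries, and neither overlapped that of Tet3 in either. The intron values of Tet1 and Tet2 hold bases of the unmethylated stretches at their starts, described further on, among them the one at the RefSeq start of Tet1. With all bases of such stretches left out, a choice made after seeing the data and by the TAPSβ level itself, the Tet1 introns read 52.6% in TAPSβ (51.9 to 53.3%) and 6.37% in CAPS (5.95 to 6.81%), and those of Tet2 38.7% (37.9 to 39.5%) and 4.67% (4.25 to 5.11%). Tet1 then lay above Tet2 in both libraries, and Tet3, whose introns hold no such bases, stayed the highest in TAPSβ and the lowest in CAPS.

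Set against all protein-coding genes, Tet1 and Tet2 introns were low in 5mC and high in 5hmC. Tet3 introns lay above the median gene in 5mC and below it in 5hmC, though less far out. The median gene had an intron level of 60.4% in TAPSβ and 3.47% in CAPS. In TAPSβ Tet1 lay at percentile 10.99 and Tet2 at percentile 10.4 of 17692 genes with at least 200 base calls, and Tet3 at percentile 72.0. In CAPS they lay at percentiles 88.9, 80.1 and 34.7 of 17322 genes. These ranks are of whole introns, start stretches included. The share of the CAPS level in the sum of the CAPS and TAPSβ levels was 11.8% in Tet1, 11.02% in Tet2 and 4.36% in Tet3, with a median of 5.65% over genes. Pooled, Tet1 and Tet2 had 0.570 times the intron TAPSβ level of Tet3 (0.561 to 0.579) and 1.63 times its CAPS level (1.47 to 1.81). Without the start stretches the ratios were 0.709 (0.699 to 0.7201) and 1.88 (1.70 to 2.09). Intervals of such ratios rest on the counts of modified reads in both genes, taken as normal on the log scale. In PS the ratio over whole introns was 1.56 (0.978 to 2.498), an interval that includes 1. The introns of Tet1, Tet2 and Tet3 had 42 of 17823, 22 of 9893 and 24 of 16248 modified PS base calls, at or below the 0.27% taken as false positives.

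**Figure D2:**
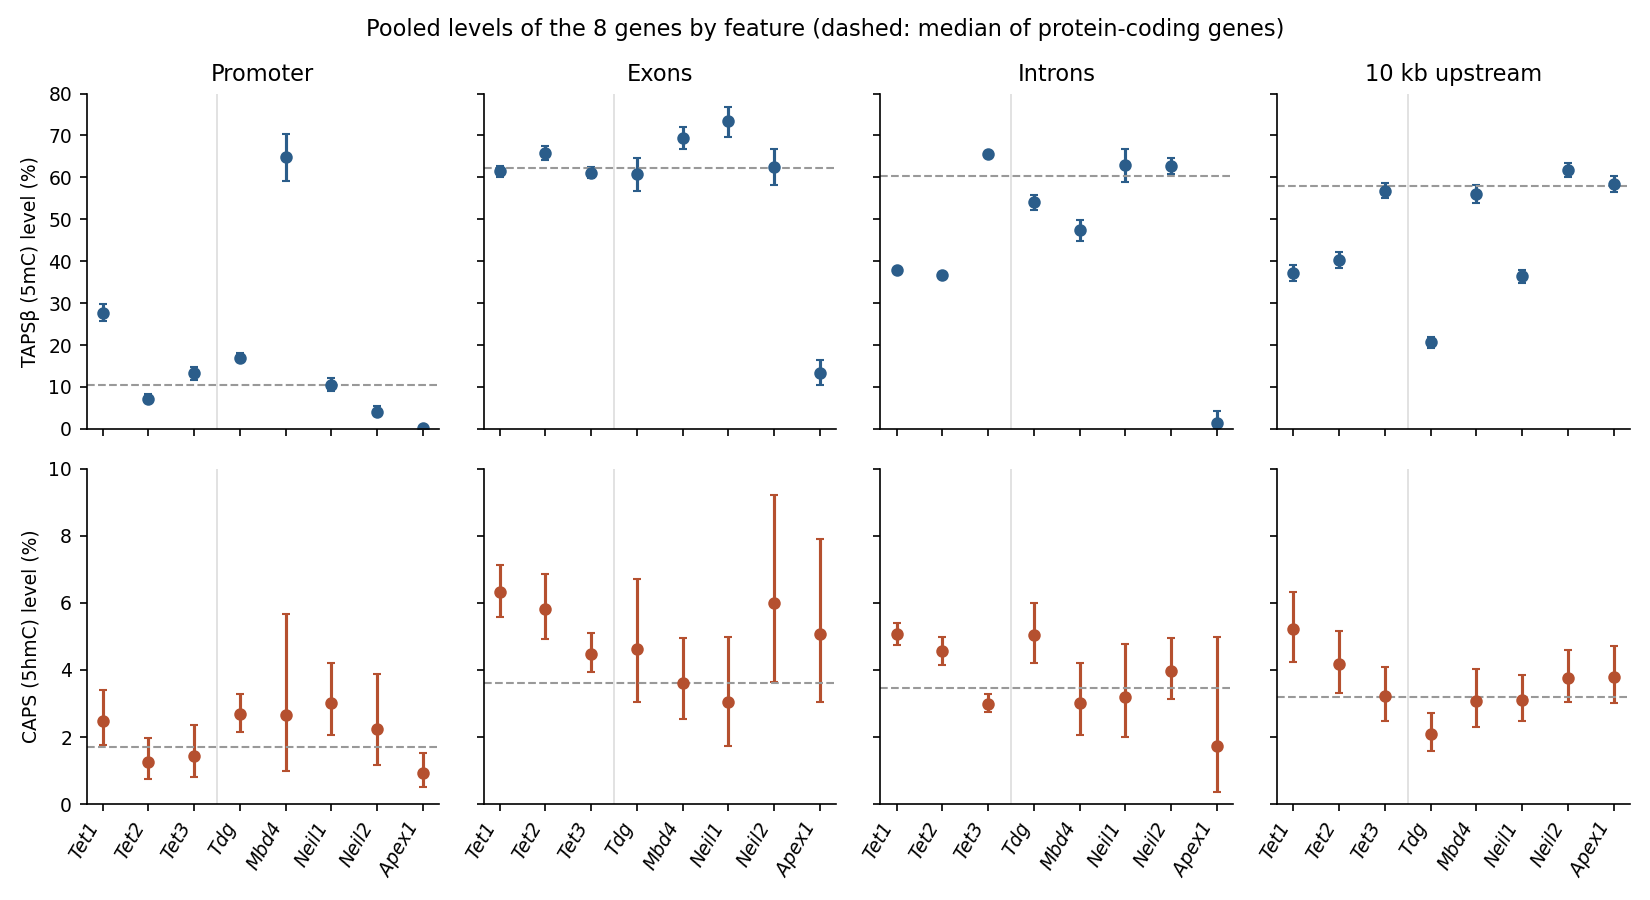
Pooled TAPSβ level (top, %) and CAPS level (bottom, %) of each gene in its promoter windows, exons, introns and the 10 kb upstream, with exact 95% intervals. The dashed line is the median of protein-coding genes. Tet1 and Tet2 lie below it in intron TAPSβ and above it in intron CAPS, and Tet3 lies on the other side of it in both.

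Exons did not share the split in 5mC. TAPSβ read 61.4% in Tet1 exons, 65.8% in Tet2 and 61.2% in Tet3, all near the median gene at 62.2%, and the pooled ratio of Tet1 and Tet2 to Tet3 was 1.03 (1.01 to 1.06). CAPS read 6.33% in Tet1 (5.59 to 7.14%), 5.83% in Tet2 (4.91 to 6.86%) and 4.48% in Tet3 (3.93 to 5.10%). The interval of Tet1 lay above that of Tet3, and that of Tet2 overlapped it. The pooled ratio was 1.37 (1.17 to 1.61). In exon CAPS Tet1 lay at percentile 93.1, Tet2 at 89.4 and Tet3 at 70.3 of 17475 genes, so all 3 were above the median gene. Upstream, TAPSβ read 37.3% at Tet1, 40.3% at Tet2 and 56.8% at Tet3, and CAPS 5.21%, 4.16% and 3.22%. The ratios were 0.684 (0.653 to 0.715) and 1.45 (1.10 to 1.92). In upstream CAPS the interval of Tet1 (4.24 to 6.32%) lay above that of Tet3 (2.49 to 4.09%), and that of Tet2 (3.31 to 5.15%) overlapped it. The Tet3 upstream region also overlaps the long noncoding RNA gene B230319C09Rik. In the promoter windows the ratio was 1.19 (1.05 to 1.35) in TAPSβ and 1.32 (0.753 to 2.32) in CAPS. The TAPSβ ratio in promoters turned to 0.400 at the RefSeq starts and 0.535 at the 5′ start clusters alone, and the CAPS ratio to 0.271 and 0.445. The TAPSβ ratio also turned to 0.975 as the mean of cytosine levels and to 0.841 with promoters of 1000 bp.

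Along the genes, the lower methylation of Tet1 and Tet2 was not spread evenly. Over the 5′-most 20 kb, in blocks of 10 kb, Tet1 read 6.09% and 9.94% in TAPSβ. The later blocks lay between 36.2% and 69.5%. The 5′-most block of Tet1 lies wholly before its RefSeq start, which is 11794 bp inside the GENCODE gene. Tet2 read 18.3%, 11.4%, 19.1% and 35.0% over its 5′-most 40 kb and between 65.9% and 78.9% beyond. Tet3 already read 46.3% in its 5′-most block, and its other blocks lay between 53.5% and 77.7%. CAPS in Tet1 was 2.27% and 2.12% in the 2 blocks of low methylation, then 7.75% (6.66 to 8.96%) from 20 to 30 kb, and peaked at 8.05% (7.04 to 9.15%) from 50 to 60 kb. In Tet2 it lay between 2.90% and 6.08% in every block. In Tet3 it was 3.39 to 4.27% over the 5′-most 30 kb, 1.99 to 2.60% from 30 to 70 kb, and 5.38% (4.67 to 6.16%) in the 3′ block, which holds the last exons.

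**Figure D3:**
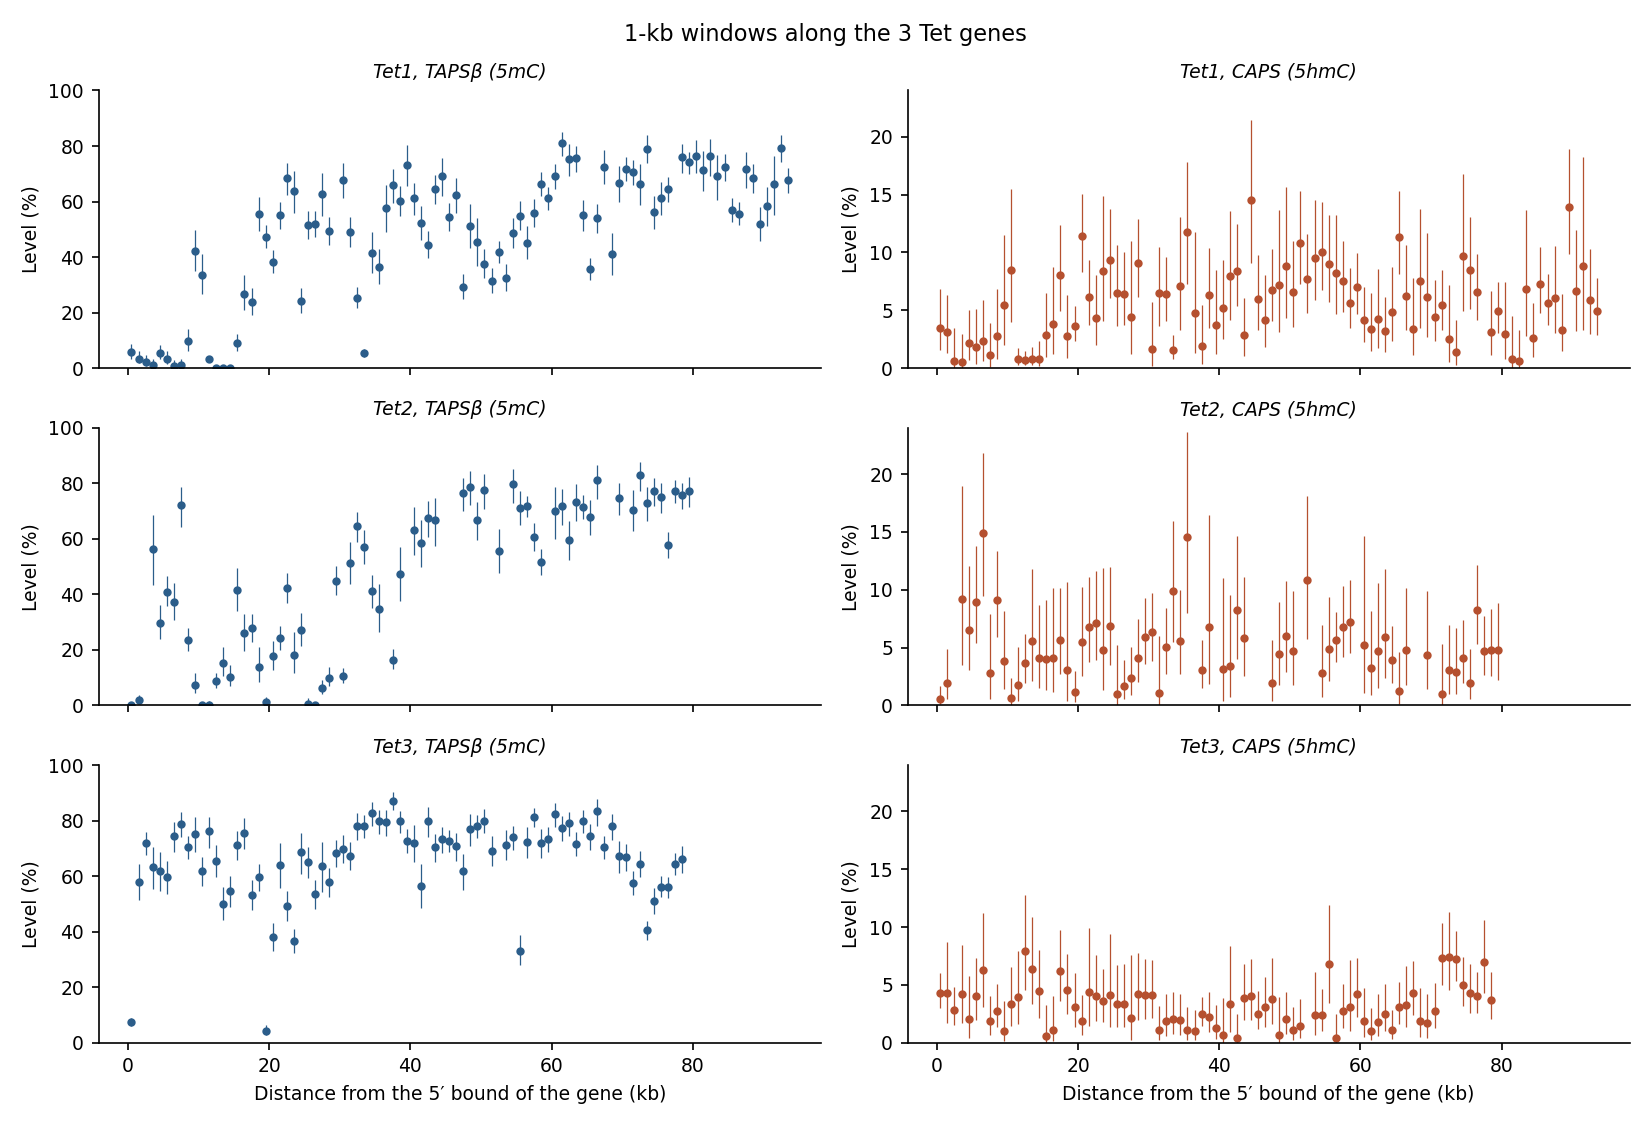
Levels in 1-kb windows along Tet1, Tet2 and Tet3 against distance from the 5′ bound of the gene in kb, TAPSβ on the left and CAPS on the right (%), with exact 95% intervals, for windows with at least 50 base calls in both libraries. The 5′ parts of Tet1 and Tet2 hold many windows near 0 in TAPSβ, whereas Tet3 has 2 windows under 20%.

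Counted in 1-kb windows, 15 of 92 in Tet1 (16.3%) and 18 of 68 in Tet2 (26.5%) had a TAPSβ level under 20%, against 2 of 78 in Tet3 (2.56%). Among 9340 genes with at least 20 such windows, the median share was 3.57%. Tet1 lay at percentile 94.2, Tet2 at 98.3 and Tet3 at 36.9. The Tet1 windows include the 11794 bp before its RefSeq start. The unmethylated stretch at the 5′ end of the GENCODE gene covers 8519 bp of that part. Windows of intermediate methylation, 20 to 50%, made up 25% of Tet1, 20.6% of Tet2 and 6.41% of Tet3, and 10.3% over all genes.

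When windows of like TAPSβ level were compared, CAPS was higher in Tet1 and Tet2 than in Tet3 at 20 to 80% TAPSβ, while outside that range the intervals overlapped or the order turned. In windows of 20 to 50% TAPSβ, CAPS read 8.02% in Tet1 (7.31 to 8.77%), 7.498% in Tet2 (6.46 to 8.64%), 5.03% in Tet3 (4.004 to 6.22%) and 5.22% in the repair genes (4.12 to 6.49%), with 6.26% over all genes. In windows of 50 to 80%, it read 5.53% in Tet1 (5.11 to 5.97%), 5.00% in Tet2 (4.46 to 5.59%), 3.22% in Tet3 (2.96 to 3.50%), 4.19% in the repair genes (3.76 to 4.65%) and 3.36% over all genes. In windows under 5%, Tet1 (1.02%), Tet2 (1.13%) and the repair genes (1.14%) lay within their intervals of the 1.04% of all genes. Tet3 had 1 such window, with 8 of 256 modified CAPS base calls (3.13%, 1.36 to 6.06%). In windows of 5 to 20% the values were 2.26% in Tet1 (1.55 to 3.18%), 4.15% in Tet2 (3.35 to 5.07%) and 4.32% in Tet3 (2.98 to 6.05%, 1 window). All genes read 3.94% in this class, above the interval of Tet1 and within those of Tet2 and Tet3. Over all windows under 20% Tet1 and Tet2 read 1.97% (1.70 to 2.28%) and Tet3, with 2 windows, 4.02% (2.88 to 5.43%), with 1.98% over all genes. In windows of 80 to 100% CAPS read 3.35% in Tet1 (1.46 to 6.49%), 3.79% in Tet2 (1.91 to 6.69%) and 2.27% in Tet3 (1.66 to 3.02%), with overlapping intervals. All genes read 2.15% there. The windows with the highest CAPS level were at 14.5% in Tet1 (20 of 138 base calls, 9.08 to 21.5%, 44 kb into the gene), 14.9% in Tet2 (21 of 141, 9.46 to 21.9%) and 7.98% in Tet3 (15 of 188, 4.53 to 12.8%). Outside promoters, the lowest TAPSβ window of Tet2 had 0 of 209 modified base calls (an upper limit of 1.75%) and that of Tet3 22 of 500 (4.40%, 2.78 to 6.59%). In the repair genes the lowest such window read between 11.4% in Apex1 and 70.2% in Neil1. The highest CAPS windows are the highest of many windows of few base calls, and both extremes are given as a description.

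**Figure D4:**
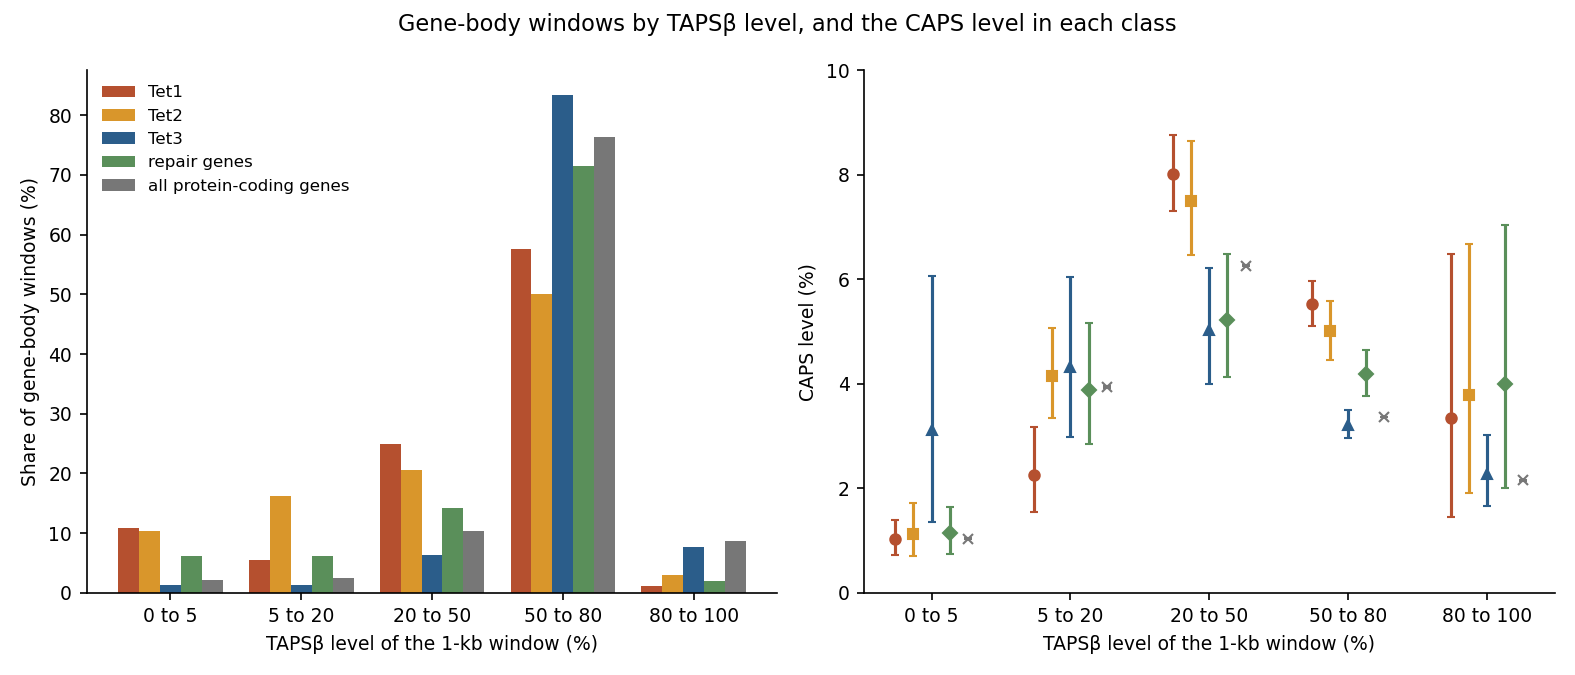
Left, share of 1-kb gene-body windows (%) in 5 classes of TAPSβ level, and right, pooled CAPS level (%) in each class with exact 95% intervals, for the 3 Tet genes, the repair genes and all protein-coding genes. In the classes from 20 to 80% Tet1 and Tet2 lie above Tet3, the repair genes and all genes in value. The intervals of Tet2 and the repair genes overlap in these classes.

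Among the repair genes, Tdg, the glycosylase for 5fC and 5caC, came closest to Tet1 in intron 5hmC. Its introns read 5.04% in CAPS (120 of 2380, 4.20 to 5.999%, percentile 88.5) at 54.0% in TAPSβ (52.3 to 55.8%). Its upstream region read 20.7% in TAPSβ, at percentile 4.81 of 21880 genes, and it also overlaps the gene 1190007I07Rik. Part of Tdg overlaps Glt8d2, so levels there belong to both. Only 84 of the 116 CpG cytosines in Tdg exons had TAPSβ reads, at a mean depth of 7.64. Mbd4, the thymine glycosylase with a methyl-CpG-binding domain, read 47.4% in intron TAPSβ (44.9 to 49.8%) and 3.00% in intron CAPS (2.06 to 4.22%).

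Neil1 and Neil2, both bifunctional glycosylases, had intron TAPSβ levels of 63.0% (59.0 to 66.8%) and 62.8% (60.9 to 64.7%), near the median gene. Their CAPS levels were 3.18% (2.01 to 4.78%) and 3.96% (3.13 to 4.94%), intervals that include the median gene. Upstream, Neil1 read 36.4% in TAPSβ (34.9 to 38.0%, percentile 16.9) and Neil2 61.9% (60.2 to 63.5%, percentile 61.4), with CAPS at 3.12% and 3.76%. The Neil1 upstream region overlaps Commd4 and Gm16493, and that of Neil2 overlaps Gata4. The highest 1-kb window of Neil2 reached 13.4% in CAPS (28 of 209, 9.09 to 18.8%), 1 to 2 kb inside the gene. Apex1, the main abasic-site endonuclease, is short, with 2 windows of 1 kb, and its exons read 13.2% in TAPSβ (10.53 to 16.4%, percentile 5.09). Its promoter windows read 0.306% in TAPSβ and 0.933% in CAPS (0.523 to 1.53%). Its exon CAPS level was 5.08% (18 of 354, 3.04 to 7.92%). Apex1 overlaps Tmem55b, and its introns held only 204 TAPSβ and 173 CAPS base calls, too few to rank in CAPS.

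Pooled, Tet1 and Tet2 had 0.684 times the intron TAPSβ level of the repair genes (0.668 to 0.7004) and 1.20 times their intron CAPS level (1.05 to 1.37). Without the start stretches, which leaves no intron base of Apex1, these were 0.793 and 1.40. The CAPS ratio was 1.47 (1.20 to 1.80) in exons and 1.49 (1.25 to 1.78) upstream, and 0.830 (0.615 to 1.12) in the promoter windows, where it turned to 1.24 at 10 or more reads and to 1.38 with protein-coding transcripts alone. TAPSβ ratios were 1.08 (1.04 to 1.11) in exons, 0.871 (0.838 to 0.904) upstream and 1.41 (1.29 to 1.53) in promoters. The promoter value mixes 5′ and internal starts: it was 6.41 with protein-coding transcripts alone and 0.902 with genes weighted equally. In PS every ratio, against Tet3 and against the repair genes, had an interval that includes 1.

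Around the unmethylated starts, CAPS was higher outside the stretches than inside them. Starting from the CpG nearest to the start, the stretch was extended while the TAPSβ level of 5 neighbouring CpGs stayed under 20%. The stretch at the 5′ end of Tet1 spanned 9387 bp with 81 CpGs, and a separate one at its RefSeq start spanned 4787 bp with 144 CpGs. Stretches of the other genes spanned 3073 bp (Apex1), 2813 bp (Tet2), 2576 bp (Tdg), 1651 bp (Neil1), 1118 bp (Neil2) and 957 bp (Tet3). Over the 8 stretches CAPS read 1.39% inside (193 of 13904, 1.20 to 1.60%), 6.20% in the 1 kb beyond both edges (5.38 to 7.09%) and 5.00% from 1 to 3 kb beyond (4.46 to 5.59%), with each base counted once. The intervals of the 2 outer zones overlapped, and without Neil2 their CAPS levels were 5.51% (4.65 to 6.47%) and 5.14% (4.54 to 5.80%). TAPSβ in the outer zones of all 8 was 39.3% and 55.3%, and its low level inside was the rule of choice.

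The values of single stretches are given with the zones of each taken alone, and those of the 2 Tet1 stretches overlap each other. Neil2 went from 2.03% inside (1.06 to 3.53%) to 8.84% at the edge (6.78 to 11.3%) and 4.30% beyond (3.13 to 5.75%), and it was the only gene whose edge interval lay above that beyond. Tet3 went from 1.84% to 6.45% (4.51 to 8.90%) and 3.51% (2.51 to 4.77%), Neil1 from 1.60% to 6.88% (4.92 to 9.33%) and 5.04% (3.72 to 6.64%), and the RefSeq stretch of Tet1 from 0.795% to 6.48% (3.75 to 10.3%) and 5.31% (3.71 to 7.34%). For the long 5′ stretch of Tet1 the interval inside (2.07%, 1.48 to 2.82%) overlapped that at the edge (3.72%, 2.10 to 6.06%). The same was true of Tdg, with 1.56% (1.10 to 2.13%) and 3.25% (1.74 to 5.49%). In these stretches CAPS was no higher at the edge than 1 to 3 kb beyond, where it read 4.84% (3.21 to 6.96%) at the 5′ stretch of Tet1 and 5.25% (3.87 to 6.94%) at Tdg. Apex1 went from 1.37% inside (0.941 to 1.93%) to 5.54% (3.42 to 8.43%) and 6.08% (4.30 to 8.32%). The edge of Tet2 held only 33 CAPS base calls.

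**Figure D5:**
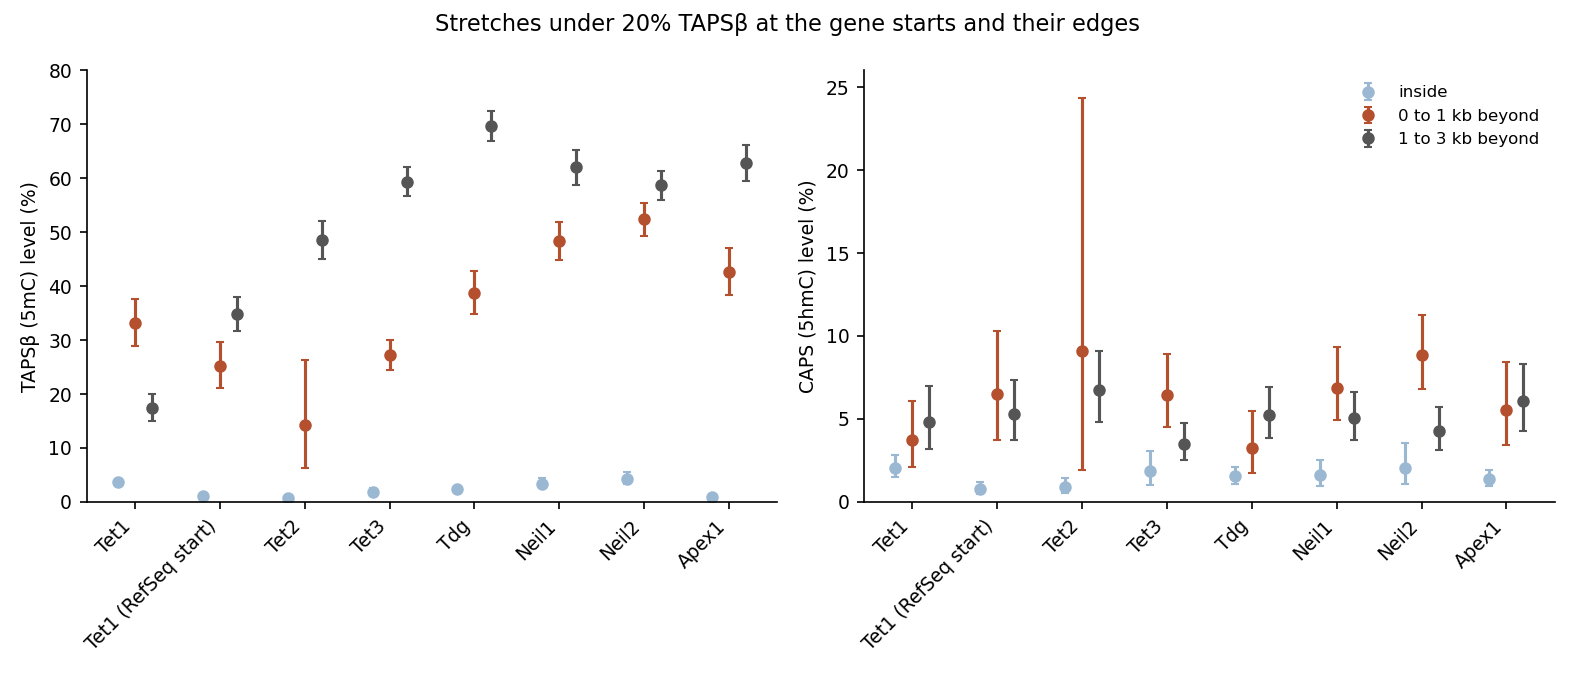
TAPSβ level (left, %) and CAPS level (right, %) inside each stretch under 20% TAPSβ at a gene start, in the 1 kb beyond its edges and from 1 to 3 kb beyond, with exact 95% intervals. Inside values of CAPS are at or below 2.07%, and the edge value of Neil2 is 8.84%.

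Single CpG cytosines with 5hmC were called by a one-sided exact binomial test of CAPS reads against the false-positive rate, at 5 or more reads, with Benjamini-Hochberg adjustment over all tested cytosines of the genome. Of 8809 tested cytosines in the 8 genes, 198 were called (2.25%, 1.95 to 2.58%), against 1.64% of all tested cytosines. The members' share lay above the genome share at 10 or more reads, with strands summed and when adjusted over cytosines with a modified read alone. Tested against the library's own CAPS rate it was 0.102% (9 of 8809, 0.0467 to 0.194%) against 0.125% of all cytosines. That interval includes the genome share, so no excess was seen at this background rate. At the false-positive rate, Tet1 held 83 of 2316 (3.58%, 2.86 to 4.42%), Tet2 38 of 1566 (2.43%, 1.72 to 3.32%) and Tet3 36 of 2346 (1.53%, 1.08 to 2.12%). The interval of Tet1 lay above the genome share, that of Tet2 just above it, and that of Tet3 included it. Against the library's own rate the calls were 3 in Tet1, 3 in Tet2 and 1 in Tet3, and all 3 intervals included the genome share. Cytosines of 1 gene share reads and are not independent, so these intervals are narrower than a true error. The repair genes held 41 of 2581 (1.59%, 1.14 to 2.15%). Tdg held 13 of 861 (1.51%) and Neil2 13 of 515 (2.52%). Apex1 held 7 of 407 (1.72%), Neil1 6 of 468 (1.28%) and Mbd4 2 of 330 (0.606%). The interval of each repair gene included the genome share.

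By feature, introns held 119 of the calls, or 2.54% of those tested, against 1.94% in introns of all protein-coding genes. In Tet1 and Tet2 the intron share was 3.33% (86 of 2581, 2.67 to 4.10%) and in Tet3 1.07% (16 of 1500, 0.611 to 1.73%), below the share of all genes. Repair gene introns had 2.81% (17 of 605, 1.65 to 4.46%), 10 of them in Tdg. Exons held 41 calls (2.91%, 2.10 to 3.93%), against 1.97% over all genes, with 18 of 369 in Tet1 (4.88%, 2.92 to 7.60%), 4 of 252 in Tet2 (1.59%, 0.434 to 4.01%) and 16 of 532 in Tet3 (3.01%, 1.73 to 4.84%). The share in Tet2 exons was thus below that in Tet3, with overlapping intervals. Upstream regions held 32 (2.02%), against 1.96%, and none of the 7 at Apex1 lay in the gene itself. The upstream region of Apex1 overlaps Osgep and U6, and that of Mbd4 overlaps Ift122. Promoter windows held 6 (0.531%), against 0.849%. The called cytosines had a median CAPS level of 32.1% at a median of 11 reads, and a pooled TAPSβ level of 45.1%. The rule for a call sets much of that CAPS level, because only high levels pass at such depth, and the lowest was 15%. It is therefore not an estimate of their 5hmC content. Of the 190 CpGs the called cytosines belong to, 8 were called on both strands. This count has no genome share beside it, and at such depth the other strand can easily go uncalled. It gives no measure of a difference between strands. In 193 of the 198 called cytosines no PS read was modified. Over the genome, 696594 of the 36570167 cytosines with 5 or more PS reads had a modified one. Most cytosines of any kind thus had none, and the count says nothing particular about the called ones.

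The 3 called cytosines with the lowest adjusted p were named for each gene, 2 in Mbd4, and some are shown with 30 reference bases on each side. The sequences run 5′ to 3′ on the strand of the called cytosine, and the capitals mark its CpG. The first is in an intron of Tet1 (chr10:62317638-62317698), the next in an intron of Tet2 (chr3:133200692-133200752), followed by one in a coding exon of Tet2 (chr3:133149428-133149488) and one in an intron of Tet3 (chr6:83385358-83385418), all in mm9.
Tet1 intron, plus strand: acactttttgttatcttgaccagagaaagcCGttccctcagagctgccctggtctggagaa
Tet2 intron, plus strand: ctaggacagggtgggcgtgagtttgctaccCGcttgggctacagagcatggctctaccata
Tet2 coding exon, plus strand: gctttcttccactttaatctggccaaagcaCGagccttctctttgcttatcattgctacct
Tet3 intron, plus strand: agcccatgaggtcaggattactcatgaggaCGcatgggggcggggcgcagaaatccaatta
The Tet1 cytosine, at position 62317668, had 5 of 8 CAPS reads modified (62.5%, adjusted p of the exact binomial test = 1.82e-06) and 3 of 16 in TAPSβ, and the other strand of its CpG had 0 of 7 in CAPS. The Tet2 intron cytosine, at 133200722, had 5 of 14 in CAPS (35.7%, exact binomial test, adjusted p = 3.54e-05) and 11 of 14 in TAPSβ. The Tet2 exon cytosine, at 133149458, had 8 of 22 in CAPS (36.4%, exact binomial test, adjusted p = 6.49e-09), the lowest p in the 8 genes, and 7 of 14 in TAPSβ. The Tet3 cytosine, at 83385388, had 4 of 6 in CAPS (66.7%, exact binomial test, adjusted p = 3.72e-05) and 10 of 15 in TAPSβ. None of the 4 had a modified PS read.
The other named Tet1 cytosines, at 62316312 and 62326841 in introns, had CAPS levels of 33.3% and 41.7%, and both were also called on the other strand. The remaining Tet2 cytosine, at 133210408, lay in the upstream region with 41.7%. The remaining Tet3 cytosines, at 83319087 and 83320433, lay in coding exons of the 3′ block, each with 44.4% (4 of 9).

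In the repair genes 14 cytosines were named. Those of Tdg, at 82098870, 82097869 and 82108969, lay in introns with 36.4%, 50% and 37.5%. The pair in Mbd4, at 115794654 in a coding exon and 115804278 upstream, had 36.4% and 30%. Neil2 had 33.3% at 63813335 upstream, and 25% at 63808741 and 42.9% at 63811341 in introns. The cytosine of Neil2 at 63811341 had 0 of 12 modified TAPSβ reads beside 3 of 7 in CAPS. Neil1 had 44.4% at 56999547 upstream and 50% at 56995329 in a promoter window, beside the intron cytosine described next. Apex1 had 22.2% at 51540290 upstream, beside a CpG called on both strands and also described next.

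Only 2 of 8938 tested cytosines were called in PS by the same test, in Neil1 and upstream of Apex1, or 0.0224% (0.00271 to 0.0808%), against 0.0791% of all tested cytosines. Both were also called in CAPS, where 5fC and 5caC are read as T too. Both passed the limits used here for variant-like cytosines, at least 5 PS reads of which at least 20% were modified. Over the genome, PS calls fell from 28928 to 2225 without such cytosines, so passing these limits says nothing particular about the 2. The Neil1 cytosine lies at the start of a run of alternating C and G in an intron (chr9:56993302-56993362, plus strand), and the Apex1 one is the minus-strand cytosine of a CpG upstream of the gene (chr14:51541839-51541899).
Neil1 intron, plus strand: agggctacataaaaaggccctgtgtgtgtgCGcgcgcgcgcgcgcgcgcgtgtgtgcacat
Apex1 upstream, minus strand: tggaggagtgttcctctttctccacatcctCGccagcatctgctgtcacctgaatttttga
The Neil1 cytosine, at 56993332, had 6 of 12 modified reads in PS and 4 of 10 in CAPS, and no TAPSβ reads. It gives 6 of the 8 modified PS reads of the Neil1 introns (1.19% of 674, percentile 98.4). The Apex1 cytosine, at 51541869, had 3 of 10 in PS, 5 of 13 in CAPS and 8 of 15 in TAPSβ, and the plus strand of the same CpG, at 51541868, had 5 of 6 in CAPS, the highest level of any called cytosine (83.3%). No cytosine of Tet1, Tet2 or Tet3 was called in PS, out of 2368, 1615 and 2414 tested.

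Differences between strands were small. In Tet1 the CAPS level was 5.72% on the sense strand and 4.93% on the antisense strand, a ratio of 1.16 (1.03 to 1.30). In Tet2 (0.993, 0.849 to 1.16) and Tet3 (0.949, 0.820 to 1.10) the interval included 1, as it did in the 5 repair genes. In TAPSβ the sense strand was higher in Tet3 (1.03, 1.01 to 1.04), Tdg (1.08, 1.02 to 1.14) and Neil2 (1.09, 1.03 to 1.15), and the interval included 1 in the other 5 genes. These levels covered the gene body outside the promoter windows.

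A wider list of 27 genes, made up of other base excision repair genes and genes tied to TET activity or demethylation, gives the setting of the 8. In introns their median TAPSβ level was 50.3%, with 5 of 27 above the median of all genes at 60.4%. Their median intron CAPS level was 3.68%, with 13 of 25 ranked genes above the all-gene median of 3.47%. The highest intron CAPS levels were in Ung, the uracil glycosylase, at 7.22% (6.05 to 8.54%), Smug1, another uracil glycosylase, at 6.31% (4.36 to 8.79%), and Nthl1, an endonuclease III homolog, at 5.92% (4.63 to 7.45%). Each was above the whole introns of Tet1 (5.07%) in value, but the intervals of Smug1 and Nthl1 include that level. Without its start stretches Tet1 read 6.37%, and such stretches were not left out for the listed genes. The lowest were Gadd45b at 1.15% (0.423 to 2.48%) and Mpg, the alkyladenine glycosylase, at 1.82% (0.498 to 4.59%). Next came Cxxc4, a CXXC-domain gene, at 1.94% (1.45 to 2.53%). The CAPS intervals of Gadd45b and Mpg include the false-positive rate of CAPS. In TAPSβ the introns of Gadd45b read 1.82% (14 of 768 base calls), those of Mpg 68.3% and those of Cxxc4 56.7%. The low CAPS level of Gadd45b was thus that of nearly unmethylated introns. In promoter TAPSβ, Smug1 (49.1%) and Neil3 (26.3%) were among the 3 highest of the list.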

How the data were processed

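On each strand of every CpG listed, the authors deposited counts of T reads (modified) and of C reads (unmodified), and the modified fraction. The fraction matched the counts within 0.0005. Per the labels, reads were trimmed with Trim Galore 0.3.1, mapped to mm9 with BWA 0.7.12 and stripped of duplicates with Picard 2.3.0. Per the study's methods, reads of mapping quality under 10 were removed and bases were called with asTair. No file held columns of samples other than the 3 libraries.

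Counts were summed over the CpG cytosines of each feature, with Clopper-Pearson 95% intervals. The median depth of 9 to 13 reads leaves single cytosines imprecise. Gene and exon bounds came from GENCODE M1. RefSeq starts came from exact matches of promoter sequences to NCBIM37. Calls took cytosines with at least 5 reads, false-positive rates of 0.0072 (CAPS) and 0.0027 (PS) given in the study, and an adjusted p under 0.05. Calling was tested on simulated data. Genes were ranked with at least 200 base calls.

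The genes, lists and windows were chosen with earlier results of these data known. Named were all 8 genes, each start cluster, the 3 called cytosines of lowest adjusted p per gene, the 1-kb windows of highest CAPS and lowest TAPSβ level, and the extreme genes of the wider list. One gene of that list is not reported here by name. The RefSeq starts, window classes, 10-kb blocks and edge zones were added after values had been seen, as were the comparisons that use them. Alternatives covered coverage minimum, averaging, promoter width, transcript choice, variant-like and high-coverage cytosines, conversion rates and gene weights. Spike-ins were not analysed here. Computations ran in Python 3.11.15 with scipy 1.17.1 and pandas 2.3.3, and plots were drawn with matplotlib 3.10.9.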

Additional observations from a re-analysis of the deposited data

How the results depend on the processing

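No paired analysis was possible because each method had 1 library. Leaving out a replicate was likewise not possible. Intron ratios kept their direction throughout: Tet1 and Tet2 to Tet3 ranged from 0.562 to 0.709 in TAPSβ and from 1.60 to 1.88 in CAPS over 14 alternatives each, and to the repair genes from 0.618 to 0.846 and from 1.16 to 1.42. Promoter ratios did not. The TAPSβ ratio to Tet3 turned to 0.975 as the mean of cytosine levels, 0.841 with promoters of 1000 bp, 0.535 with the 5′ start cluster only and 0.400 at RefSeq starts, the last 2 chosen after seeing the data. The TAPSβ ratio to the repair genes turned to 0.902 with genes weighted equally and otherwise moved to 1.59 (at least 10 reads), 1.07 (mean of cytosine levels), 1.22 (promoters of 1000 bp), 6.41 (protein-coding transcripts), 1.04 (5′ start cluster) and 2.54 (RefSeq starts). The promoter CAPS ratio to Tet3 moved to 0.445 (5′ start cluster) and 0.271 (RefSeq starts), and that to the repair genes to 1.24 (at least 10 reads), 1.38 (protein-coding transcripts) and 0.540 (RefSeq starts). The cause was not tested.

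Exon TAPSβ ratios moved to 1.01 (Tet3, 5′ start cluster) and, for the repair genes, to 1.04 (mean of cytosine levels), 1.13 (promoters of 250 bp), 1.56 (promoter bases kept in the features) and 1.14 (genes weighted equally). Intron TAPSβ ratios moved to 0.605 (Tet3, mean of cytosine levels) and, for the repair genes, to 0.751 and 0.618 (promoters of 250 and 1000 bp), 0.666 (protein-coding transcripts), 0.846 (promoter bases kept) and 0.815 (equal weights). Intron CAPS moved to 1.83 (Tet3, corrected for conversion rates) and 1.42 (repair genes, equal weights), and intron PS to 0.341 (repair genes, equal weights). Leaving out intron bases near RefSeq starts moved the TAPSβ ratios to 0.599 (Tet3) and 0.719 (repair genes), and leaving out the start stretches to 0.709 and 0.793, with CAPS at 1.88 and 1.40, both chosen after seeing the data. Upstream TAPSβ moved to 0.631, 0.764 and 0.621 (Tet3; promoters of 250 and 1000 bp, promoter bases kept) and to 0.944, 0.804 and 0.8309 (repair genes; promoters of 1000 bp, promoter bases kept, equal weights). The pooled levels of all 8 genes moved beyond their intervals in 32 of 132 alternatives.

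The number of CAPS calls in the 8 genes, 198, was 118 at 10 or more reads (2.51%, genome 1.96%), 9 against the library's own rate (0.102%, 0.0467 to 0.194%, genome 0.125%, so no excess over the genome was seen), 680 when adjusted over cytosines with a modified read (26.2%, genome 22.8%) and 362 with strands summed (7.71%, genome 5.12%). The number of PS calls, 2, was 180 of 181 when adjusted over cytosines with a modified read, where 97.0% were called genome-wide, so it says nothing about these genes, and 0 without variant-like cytosines (genome 0.00609%). Depth limits single cytosines, and 1 library per method leaves variation between cultures unknown.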
